A study of Mus musculus with 10 samples.

Results

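Expression of 10 imprinted genes was followed in RNA-seq gene counts of mouse embryonic midbrain, namely the growth factor gene Igf2, the non-coding RNA genes H19 and Meg3, and the protein-coding genes Dlk1, Peg3, Cdkn1c, Ndn, Grb10, Mest and Plagl1. They were chosen by name, with symbols matched to Entrez gene IDs, and all 10 were among the 30935 gene IDs counted. The deletion group held embryos homozygous for loss of 2xHAR.321 (Rbfox1 ΔHAR.321/ΔHAR.321), a human accelerated region in the Rbfox1 locus, and the wild-type group held Rbfox1 +/+ embryos. Every sample was midbrain at embryonic day 14.5 (E14.5), with 5 libraries per group described as independent biological samples: deletion 2, 3, 4, 5 and 6, and wild-type 1, 2, 4, 5 and 6. How the allele was made, from how many founders, and the strain, sex and litter of the embryos is not given in the sources used here.

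Imprinted genes are transcribed from a single parental allele, because methylation marks that differ between egg and sperm set which allele is active, at the gene itself or through insulators and non-coding RNAs of its domain. In the mouse, Igf2, Dlk1, Peg3, Ndn, Mest and Plagl1 are expressed from the paternal allele and H19, Meg3 and Cdkn1c from the maternal one, while Grb10 is expressed from the maternal allele in most tissues and from the paternal allele in neurons. As a group they are known for dosage-sensitive control of embryonic growth, and several are abundant in the developing brain. The counts sum both alleles, so they measure how much RNA a gene gave and not which allele gave it.

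Library totals ran from 16323500 to 20255728 counts in the deletion group and from 16246892 to 19090641 counts in the wild-type group. All 12 listed neuronal markers and all 10 listed dopaminergic markers, which define the ventral midbrain, were counted in these samples. Over all genes, the slope of log2 CPM (gene counts relative to the TMM-scaled library total) on log2 transcript length ran from -0.055 to 0.104 in deletion libraries and from -0.0611 to -0.00978 in wild-type libraries. Deletion 4, at -0.055, was the one deletion library inside the wild-type range. Y-linked transcripts summed to 0 to 269.6 CPM in deletion and 0.2097 to 257.5 CPM in wild-type libraries, so each group held libraries with and without them. Rbfox1 itself stood at 161 ± 13.7 CPM in deletion and 149 ± 11 CPM in wild-type libraries (SD, n = 5 each; edgeR quasi-likelihood test, Benjamini-Hochberg adjusted p = 0.607), and it served as no check of the deletion, since where the element lies relative to counted exons was not analysed here.

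H19 was listed at 0 counts in all 5 deletion and all 5 wild-type libraries. H19 is the maternally expressed non-coding partner of Igf2, and in the mouse both are controlled by a shared imprinting control region and shared enhancers. A count of 0 allows up to 3 counts, or 0.149 to 0.185 CPM in deletion libraries and 0.156 to 0.184 CPM in wild-type libraries, for counting error only. Mir675, whose hairpin lies within H19, was also at 0. So was Snhg1, a non-coding gene that most cell types express, and Gas5, another such gene, held 0 to 11 counts per library. Of other non-coding imprinted genes, Meg3 averaged 1480 CPM and Rian 613 CPM over the 10 libraries. Genes that overlap H19 in GENCODE M21 each share 2.85% to 3.41% of its exonic bases. The zero of H19 describes the table. Whether H19 RNA was absent from the tissue or its reads were not counted was not tested, and H19 entered no comparison.

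The other 9 genes were all well counted, with at least 1077 counts in every library. Their promoters are where imprinting acts for several of them: the CpG-rich promoters of Mest, Plagl1 and Peg3 lie in regions that are methylated in the egg. The hexamer TGCCGC is the site that the zinc finger protein ZFP57 binds, when methylated, to maintain imprints. It was searched on both strands of the promoter windows of RefSeq (GRCm38.p6; 250 bases before and 50 after each start), which covered 8 of the 10 genes with 15 windows. The hexamer was in 6 of those 15 windows (40%), from 5 genes (Igf2, Meg3, Grb10, Mest and Plagl1), against 11.6% of all 32851 windows. Of the 6, 2 are windows of Mest whose starts lie 3 bases apart and which hold the same matches. The hexamer contains a CpG, and the 15 windows had a median of 13 CpG sites against 7 over all windows. A match is a run of letters and not a shown binding site. Shown here, 5′ to 3′ on the strand of the gene, are the window of Mest with 2 matches, those of Plagl1 and Grb10 with 1 each, and for contrast that of Peg3, which had none in this window; capitals mark TGCCGC or its reverse complement GCGGCA.
Mest promoter, chr6:30737800-30738099, plus strand: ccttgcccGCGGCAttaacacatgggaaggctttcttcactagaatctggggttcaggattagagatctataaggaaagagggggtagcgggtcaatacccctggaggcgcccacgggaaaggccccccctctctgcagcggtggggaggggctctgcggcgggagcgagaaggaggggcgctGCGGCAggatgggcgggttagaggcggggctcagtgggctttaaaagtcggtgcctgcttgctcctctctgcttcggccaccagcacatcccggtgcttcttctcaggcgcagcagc
Plagl1 promoter, chr10:13090582-13090881, plus strand: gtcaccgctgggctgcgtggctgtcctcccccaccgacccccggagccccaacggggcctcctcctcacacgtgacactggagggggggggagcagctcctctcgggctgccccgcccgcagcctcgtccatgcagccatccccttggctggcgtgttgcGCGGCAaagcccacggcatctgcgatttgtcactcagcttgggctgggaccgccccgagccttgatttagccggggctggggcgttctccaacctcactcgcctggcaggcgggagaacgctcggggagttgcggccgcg
Grb10 promoter, chr11:12037371-12037670, minus strand: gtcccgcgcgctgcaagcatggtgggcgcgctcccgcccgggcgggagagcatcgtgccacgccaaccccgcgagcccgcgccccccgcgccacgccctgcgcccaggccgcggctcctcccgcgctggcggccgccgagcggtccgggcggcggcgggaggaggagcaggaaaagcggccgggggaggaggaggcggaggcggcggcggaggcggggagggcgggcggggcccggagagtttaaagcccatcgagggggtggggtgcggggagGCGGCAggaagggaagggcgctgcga
Peg3 promoter, chr7:6730370-6730669, minus strand: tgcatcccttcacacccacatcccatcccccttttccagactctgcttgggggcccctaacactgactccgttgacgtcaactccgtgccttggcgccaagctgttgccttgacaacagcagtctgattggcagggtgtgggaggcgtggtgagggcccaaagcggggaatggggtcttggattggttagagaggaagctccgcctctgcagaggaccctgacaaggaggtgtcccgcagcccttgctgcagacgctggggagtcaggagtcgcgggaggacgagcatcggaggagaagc
The Grb10 window held 45 CpG sites and was denser in CpG than 98.1% of all windows. The windows shown for Plagl1, Mest and Peg3 held 26, 17 and 13. Over all 15 windows the number ran from 1 (a window of Meg3) to 45, with 2 and 7 in windows of Igf2, 8 in another of Mest, and 9 in that of Dlk1 and in the other of Grb10.

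Levels spanned more than an order of magnitude. Per kilobase of the longest annotated transcript, Ndn averaged 212 CPM per kb over the 10 libraries, Cdkn1c 182 and Meg3 102. Ndn encodes necdin, a MAGE-family protein of postmitotic neurons that restrains proliferation, and Cdkn1c encodes p57, an inhibitor of cyclin-dependent kinases that accompanies cell cycle exit. The ranges of Ndn (200.3 to 227 CPM per kb) and Cdkn1c (135 to 229) overlapped, so their order was within the spread between libraries, while Meg3 (81.5 to 125) lay below both. Mest, Peg3 and Grb10 followed at 40.8, 39.3 and 33.2 CPM per kb with overlapping ranges. Plagl1 averaged 23.4, Dlk1 17.7 and Igf2 14.2 CPM per kb, and each overlapped its neighbour in the order. The order rests on the transcript taken for the length. With the median annotated transcript in place of the longest, Meg3 moved to rank 1 and Ndn to rank 4, and Dlk1 and Igf2 stayed the lowest pair with ranks 9 and 8.

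**Figure D1:**
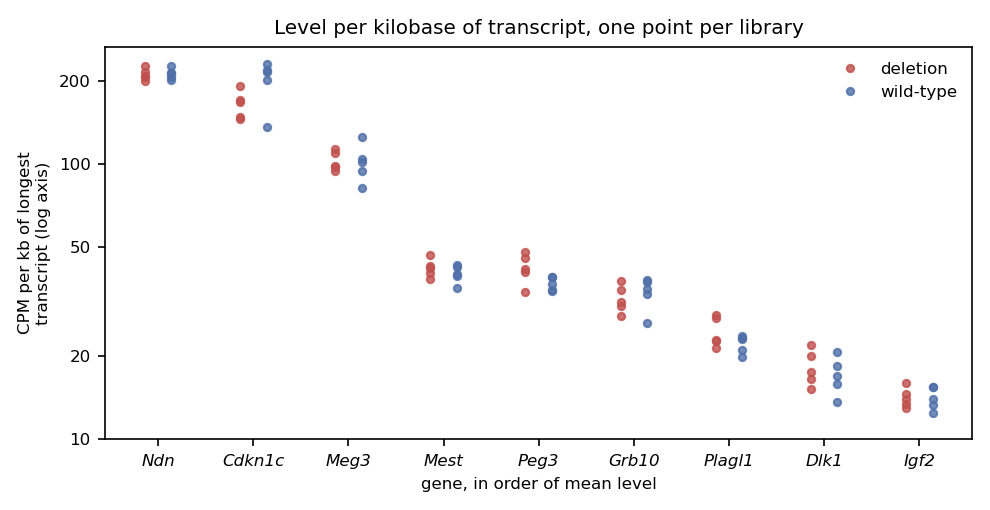
Level of 9 imprinted genes per kilobase of the longest transcript, on a log axis, with 1 point per library (deletion left, wild-type right of each pair), in order of the mean. Ndn and Cdkn1c share the top, Meg3 lies below them, and Igf2 is lowest with a mean of 14.2 CPM per kb.

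Between genotypes, 0 of the 9 tested imprinted genes reached an adjusted p under 0.05 in edgeR, where 9 of 15288 genes passed overall (0.0589%). In the same test, 2 of the 9 had an unadjusted p under 0.05, Peg3 above and Cdkn1c below wild-type, against 10.5% of all genes. DESeq2 and limma-voom called 0 of the 9 (3.28% of genes with a DESeq2 adjusted p, and 0% of genes in limma-voom, were called). For 6 of the 9 the log2 fold change (log2 FC, deletion over wild-type) was above 0 and for 3 below, with a median of 0.01, against -0.002 over all genes tested. For each of the 9 the ranges of the groups overlapped, against 2.49% of all genes with ranges apart. In simulated counts with these libraries' means and spread, the test recovered 88% of genes at a true fold of 1.5. At the smallest fold simulated, which was below 1.5, it recovered 44%. Those counts were drawn independently for each gene, without library-wide shifts such as that of the length slope. Recovery under such shifts was not measured. The folds of the 9 genes lay between 0.823 (Cdkn1c) and 1.14 (Peg3). In either direction these were smaller changes than any simulated, so recovery at folds of this size was not measured. In a bulk sample, fewer cells of a type and less RNA per cell cannot be told apart.

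**Figure D2:**
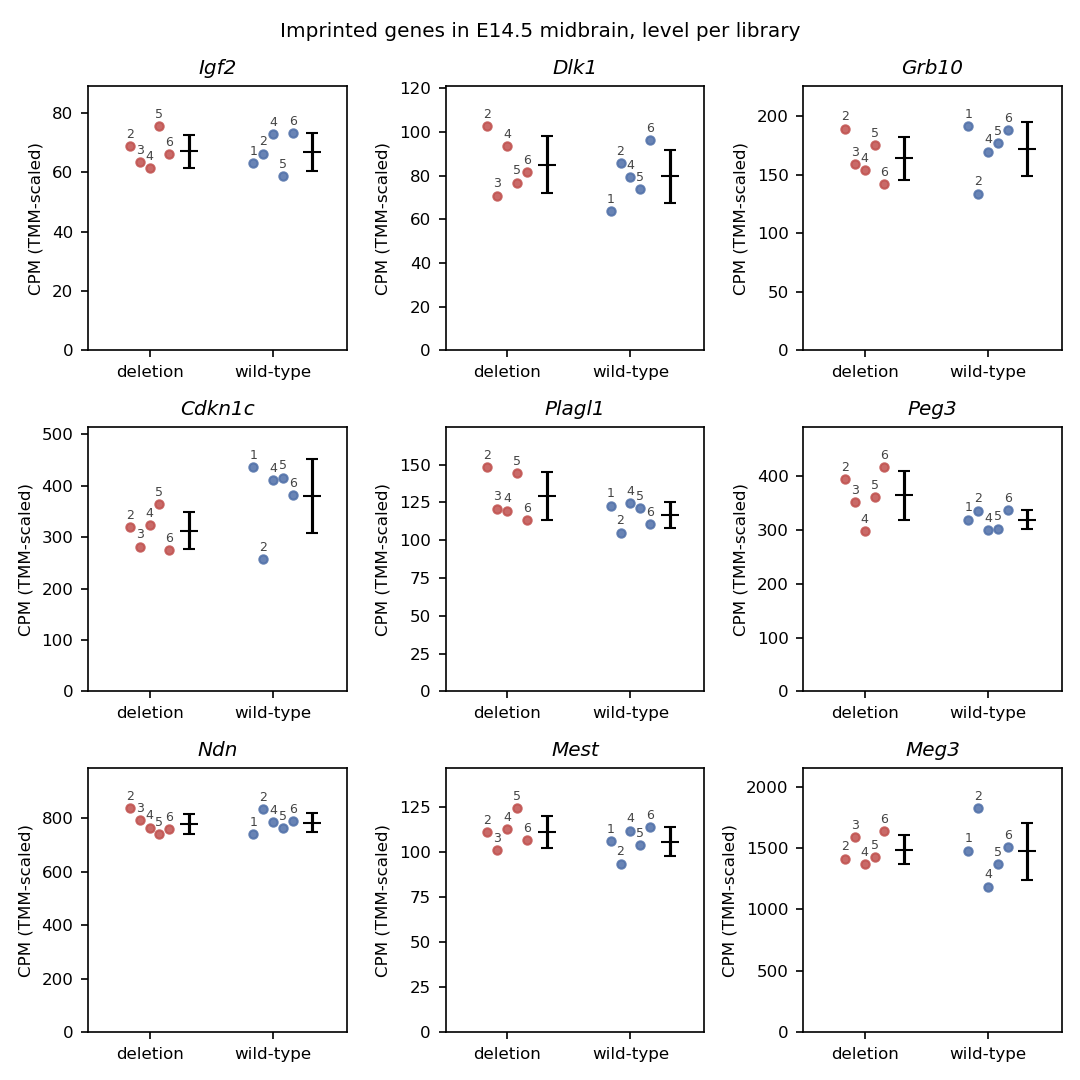
TMM-scaled CPM of each tested imprinted gene, 1 panel per gene, with deletion libraries left and wild-type libraries right, labelled by library number; the bar shows the mean and SD of 5 libraries. The groups overlap in every panel, and wild-type 2 stands at 257 CPM in the Cdkn1c panel, below the other 4 wild-type libraries.

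Of the growth factors and ligands, Igf2 differed least between genotypes. It stood at 68.8, 63.5, 61.2, 75.4 and 66.2 CPM in deletion 2 to 6, against 63.0, 66.2, 72.8, 58.6 and 73.2 CPM in wild-type 1, 2, 4, 5 and 6. The highest value fell in the deletion and the lowest in the wild-type group, with the rest interleaved. The mean fold was 1.004, with a 95% interval of 0.898 to 1.12 (edgeR adjusted p = 0.992). Part of this count is uncertain, because an overlapping gene on the same strand, Gm49394, shares 62.8% of the exonic bases of Igf2 in GENCODE M21. Dlk1, a membrane-bound ligand related to Delta that is made by midbrain dopaminergic neurons, was more variable. Its level was 102.5, 70.7, 93.5, 76.7 and 81.6 CPM in deletion 2 to 6, against 63.6, 85.6, 79.1, 73.9 and 96.1 CPM in wild-type 1, 2, 4, 5 and 6. The log2 FC was 0.09 (SE 0.11, 95% interval -0.13 to 0.32, edgeR adjusted p = 0.832), less than the spread between libraries of either group. With 1 library left out it ran from 0.01 (without deletion 2) to 0.17 (without wild-type 6), and it was 0.02 without wild-type 1.

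Grb10 encodes an adaptor that dampens insulin and IGF receptor signalling. It averaged 164 ± 18.6 CPM in deletion and 172 ± 23.0 CPM in wild-type libraries (SD, n = 5 each), a log2 FC of -0.07 (SE 0.09, 95% interval -0.26 to 0.12, edgeR adjusted p = 0.850). Its lowest libraries were deletion 6 at 142 CPM and wild-type 2 at 134 CPM, and the log2 FC was -0.02 without deletion 6 and -0.155 without wild-type 2.

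Cdkn1c showed the widest gap of the 9 genes. It stood at 319, 281, 324, 364 and 275 CPM in deletion 2 to 6, against 436, 257, 410, 415 and 381 CPM in wild-type 1, 2, 4, 5 and 6. Every deletion library was under the mean of the wild-type group, and 4 of the 5 wild-type libraries lay above every deletion library, while wild-type 2 was the lowest of all 10. The log2 FC was -0.28 (SE 0.12, 95% interval -0.54 to -0.02), which did not pass in edgeR (unadjusted p = 0.0370, adjusted p = 0.429) or in the exact two-sided permutation test over libraries (p = 0.135, where the smallest possible is 0.00794). Without wild-type 2 the value was -0.40 (SE 0.08) and passed in edgeR (adjusted p = 0.0263), with an exact permutation p of 0.0159. An antisense gene, Gm44732, shares 30.7% of the exonic bases of Cdkn1c, and the strandedness of the libraries is not given in the sources used here.

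Neural progenitor markers were set beside Cdkn1c after the data were seen, since both were lowest of the wild-type group in wild-type 2. The values that follow therefore describe these libraries and are no independent test. The summed level of 12 progenitor markers, all of them counted, was 1236 to 1762 CPM in deletion libraries and 1301 to 1738 CPM in wild-type libraries, and wild-type 2 held the 1301. Of these 12 markers, 0 were called in edgeR, and 10 had a log2 FC below and 2 above 0. With the mean level of these markers as a covariate, a setting chosen after the data were seen, the log2 FC of Cdkn1c was -0.16 (SE 0.09, edgeR adjusted p = 0.679). Centred on group means, Cdkn1c and these markers had an r of 0.736 (exact permutation p = 0.0558, adjusted p = 0.334) and a rho of 0.430 (exact permutation p = 0.216, adjusted p = 0.619). The r was -0.0502 without wild-type 2 and deletion 6, so the relation rests on those libraries. With each library's trend on transcript length removed, the log2 FC of Cdkn1c was -0.21 (SE 0.12, adjusted p = 0.706).

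Of the transcription regulators, Peg3 and Plagl1 had means above wild-type that did not pass. Peg3 encodes a large zinc finger protein linked in mice to maternal behaviour and growth. It stood at 395, 352, 298, 361 and 416 CPM in deletion 2 to 6, against 319, 336, 299, 302 and 336 CPM in wild-type 1, 2, 4, 5 and 6. In 4 of the 5 deletion libraries it was above every wild-type library, and deletion 4 was the lowest of all 10. The log2 FC was 0.19 (SE 0.08, 95% interval 0.03 to 0.35, edgeR unadjusted p = 0.0197, adjusted p = 0.352; exact permutation p = 0.0794). Without deletion 4 it was 0.26 (SE 0.06, edgeR adjusted p = 0.0217).

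Peg3 followed the length slope library by library. Its longest transcript has 8694 bases, the second longest of the 9 after Meg3. Centred on the group means over 10 libraries, its log2 CPM and the slope had a Pearson r of 0.946 (exact permutation p = 0.00125) and a Spearman rho of 0.867 (exact permutation p = 0.00403), with adjusted p of 0.135 and 0.236 over 108 relations of genes with library measures. The r was 0.782 without deletion 4 and deletion 6, the libraries farthest out on the slope. With the length trend removed, the log2 FC of Peg3 was 0.11 (SE 0.06, edgeR adjusted p = 0.700), and with GC content removed as well it was 0.10 (SE 0.05, adjusted p = 0.566). Meg3, the longest, had an r of 0.594 with the slope (exact permutation p = 0.00514, adjusted p = 0.178) and a rho of 0.842 (exact permutation p = 0.00576, adjusted p = 0.236). The next longest, Plagl1, Grb10, Igf2 and Dlk1, had an r with the slope of -0.174, -0.163, 0.343 and -0.0577. Peg3 also had an r of 0.877 with the neuronal markers (exact permutation p = 0.00812, adjusted p = 0.178). Which of the measures Peg3 followed was not tested.

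Plagl1 encodes ZAC1, a zinc finger factor that in the mouse regulates other imprinted genes, Igf2 and Cdkn1c among them. Its level was 148, 121, 120, 144 and 113 CPM in deletion 2 to 6, against 123, 105, 125, 121 and 111 CPM in wild-type 1, 2, 4, 5 and 6. Deletion 2 and deletion 5 stood above the other 8 libraries, which overlapped. The log2 FC was 0.14 (SE 0.08, 95% interval -0.02 to 0.31, edgeR adjusted p = 0.548), and it was 0.09 without deletion 2 and 0.10 without deletion 5.

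Ndn had the least spread of the 9 genes. It averaged 779 ± 37.6 CPM in deletion and 784 ± 34.7 CPM in wild-type libraries (SD, n = 5 each), a coefficient of variation of 4.83% and 4.43%. The fold was 0.994 with a 95% interval of 0.910 to 1.09 (edgeR adjusted p = 0.979). Mest, which encodes a hydrolase-like protein of mesodermal and neural tissue, averaged 111 ± 8.67 CPM in deletion and 106 ± 7.98 CPM in wild-type libraries (SD, n = 5 each; log2 FC 0.07, SE 0.07, adjusted p = 0.785), and the log2 FC was 0.02 without deletion 5 and likewise 0.02 without wild-type 2. Copg2 on the opposite strand shares 23.1% of the exonic bases of Mest, and its own log2 FC was 0.02 (SE 0.07).

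Meg3, a nuclear non-coding RNA expressed from the maternal allele of the Dlk1-Dio3 domain, was the most counted of the 10. It stood at 1414, 1591, 1368, 1425 and 1638 CPM in deletion 2 to 6, against 1478, 1823, 1186, 1371 and 1508 CPM in wild-type 1, 2, 4, 5 and 6. Wild-type 2 and wild-type 4 were the highest and the lowest of all 10 libraries, so the wild-type range enclosed the deletion range. The fold was 1.01 with a 95% interval of 0.887 to 1.15 (edgeR adjusted p = 0.977).

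**Figure D3:**
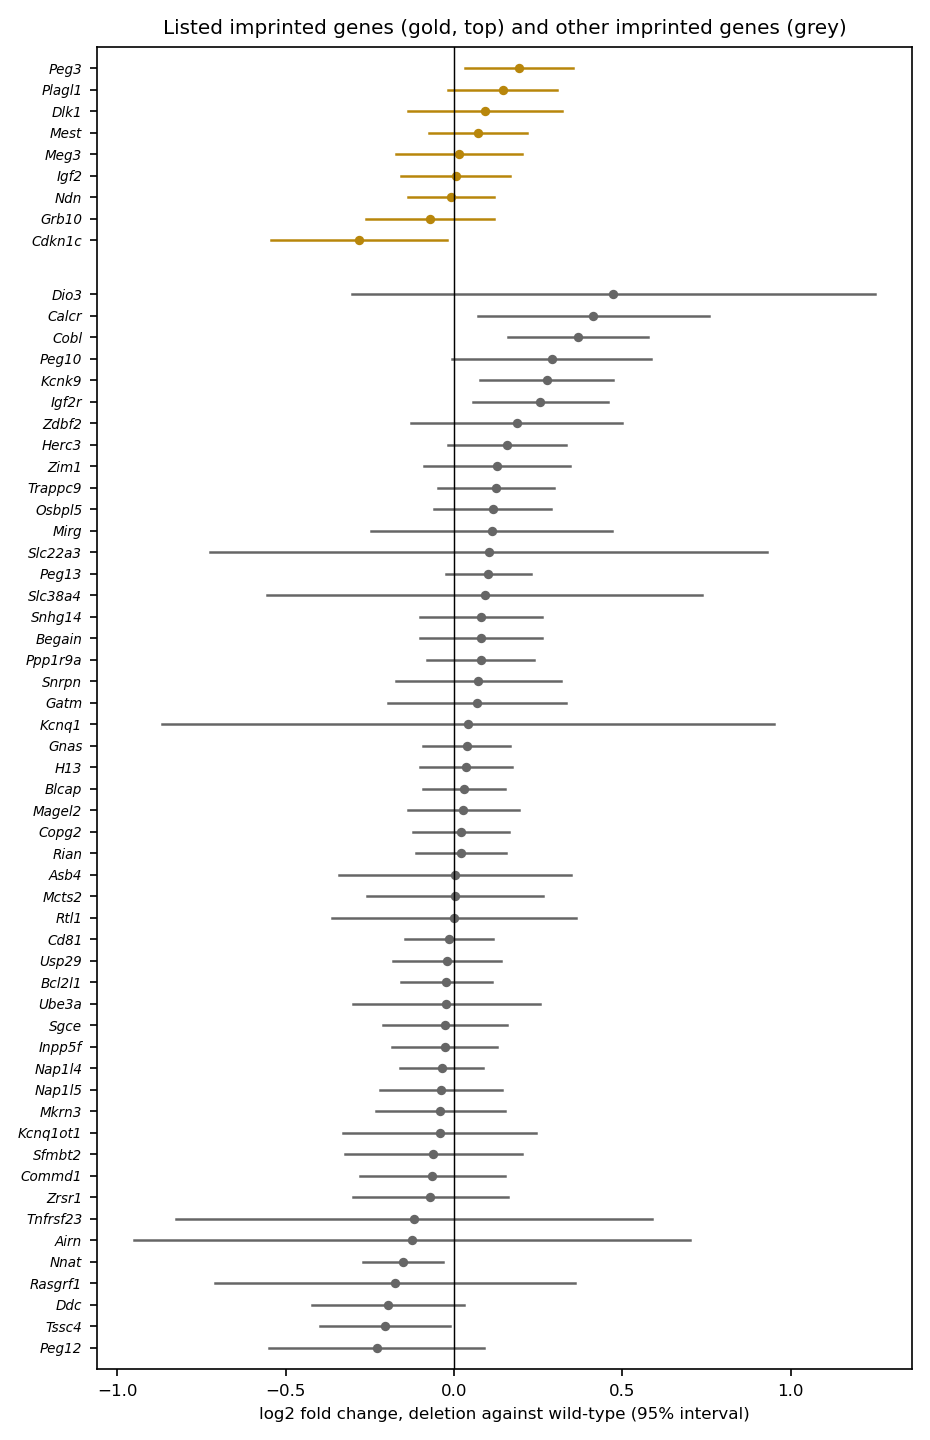
Log2 fold change of deletion against wild-type with its 95% interval from edgeR for the 9 tested genes of the list (gold, top) and 50 other tested imprinted genes (grey); Dcn, at 1.40 with an interval of 0.17 to 2.64 and a mean of 0.642 CPM, is left off the axis. Among the gold genes Peg3 (0.19) and Cdkn1c (-0.28) have intervals that exclude 0 before adjustment.

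Other genes of the same imprinted domains were tested in the same fit. Of 64 other imprinted genes listed, 62 matched an ID and 51 were tested. In edgeR, 0 of the 51 passed over all genes, 5 had an unadjusted p under 0.05 above wild-type (5.62% of all genes) and 2 below (4.92%), and the median log2 FC was 0.03 against -0.002 over all genes. DESeq2 called 2 of the 31 that it gave an adjusted p, Cobl and Nnat, against 3.28% of all such genes, and limma-voom called 0 of the 51. Within the Dlk1-Dio3 domain on chromosome 12, the non-coding Rian averaged 617 ± 23.9 CPM in deletion and 609 ± 42.1 CPM in wild-type libraries (SD, n = 5 each; log2 FC 0.02, SE 0.06). Rtl1 (-0.00065, SE 0.17), Mirg (0.11, SE 0.17), Dio3 (0.47, SE 0.37) and Begain (0.08, SE 0.09) did not pass either, and Dio3, the thyroid hormone deiodinase gene, had a mean of 1.47 CPM.

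The domains of distal chromosome 7 around Igf2 and Cdkn1c held 12 other listed genes, of which 7 were tested. Tssc4, a factor of spliceosome assembly, averaged 26.6 ± 1.94 CPM in deletion and 30.7 ± 3.28 CPM in wild-type libraries (SD, n = 5 each; log2 FC -0.21, SE 0.09, edgeR unadjusted p = 0.0374, adjusted p = 0.431). Kcnq1ot1, the paternally expressed antisense RNA that silences Cdkn1c on its own allele in the mouse, had a log2 FC of -0.04 (SE 0.14). Nap1l4, Osbpl5, Cd81, Kcnq1 and Tnfrsf23 lay between -0.12 and 0.12 on the log2 scale. Of these, Kcnq1 (mean 1.01 CPM, SE 0.44) and Tnfrsf23 (mean 1.06 CPM, SE 0.34) were low and imprecise. Ins2, Igf2os, Ascl2, Phlda2 and Slc22a18 were too low to be tested.

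Around Peg3, Usp29, whose promoter region Peg3 shares, had a log2 FC of -0.02 (SE 0.08) and Zim1, a maternally expressed zinc finger gene, one of 0.13 (SE 0.10). In the Snrpn domain that holds Ndn, the MAGE-family gene Magel2 (0.03, SE 0.08), Mkrn3 (-0.04, SE 0.09), Snrpn (0.07, SE 0.12), Ube3a (-0.02, SE 0.13), Snhg14 (0.08, SE 0.09) and Peg12 (-0.23, SE 0.15) did not pass. Snhg14 runs antisense across Ube3a in neurons, so without strand their counts are uncertain. In the domains of proximal chromosome 6, the retrotransposon-derived gene Peg10 averaged 243 ± 29.3 CPM in deletion and 199 ± 42.7 CPM in wild-type libraries (SD, n = 5 each; log2 FC 0.29, SE 0.14, edgeR adjusted p = 0.488), and 5 of 5 deletion values exceeded the average of wild-type. Calcr, the calcitonin receptor gene, had a log2 FC of 0.41 (SE 0.16, adjusted p = 0.357), and Sgce, Ppp1r9a and Asb4 lay between -0.03 and 0.08.

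The listed neighbours of Grb10 on chromosome 11 had log2 FC values of opposite sign, and neither passed in edgeR. Cobl, an actin nucleator gene, averaged 35.9 ± 3.33 CPM in deletion and 27.8 ± 4.05 CPM in wild-type libraries (SD, n = 5 each; log2 FC 0.37, SE 0.10). It had the smallest p of the 51 genes in edgeR (unadjusted p = 0.00132, adjusted p = 0.137), exceeded the average of wild-type in 5 of 5 deletion libraries, and passed in DESeq2 (adjusted p = 0.0259). Ddc, the decarboxylase of dopamine and serotonin synthesis, had a log2 FC of -0.20 (SE 0.11, edgeR adjusted p = 0.563).

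Of the other imprinted genes elsewhere in the genome, Nnat was the most counted. Nnat encodes neuronatin, a membrane proteolipid of developing neurons, and averaged 3570 ± 159 CPM in deletion and 3960 ± 79.6 CPM in wild-type libraries (SD, n = 5 each). The groups did not overlap, with each deletion library under each wild-type one, and the log2 FC was -0.15 (SE 0.06, edgeR adjusted p = 0.311; DESeq2 adjusted p = 0.0378). It was the 1 gene of the 51 with groups apart, against 2.49% of all genes. Kcnk9, a potassium channel gene expressed from the maternal allele in brain, had a log2 FC of 0.28 (SE 0.09, edgeR adjusted p = 0.255) and exceeded the average of wild-type in 5 of 5 deletion libraries. Dcn, a gene of connective tissue, was near the limit of detection at 0.930 ± 0.471 CPM in deletion and 0.353 ± 0.403 CPM in wild-type libraries (SD, n = 5 each; log2 FC 1.40, SE 0.59, edgeR adjusted p = 0.392).

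Among 17 genes of the IGF axis, 16 were tested and 0 passed over all genes in edgeR, DESeq2 or limma-voom. In edgeR, 3 had an unadjusted p under 0.05, all above wild-type (5.62% of all genes), and the median log2 FC was 0.12. The length slope lay above the wild-type range in every deletion library but deletion 4. How far it bears on this list was not tested. Irs2, a docking protein of the insulin and IGF1 receptors, had a log2 FC of 0.27 (SE 0.08, edgeR adjusted p = 0.188), Igf2r, the imprinted receptor that clears IGF2, one of 0.26 (SE 0.10, adjusted p = 0.304), and Insr one of 0.15 (SE 0.07, adjusted p = 0.425). In each of these 3 genes, 5 of 5 deletion values exceeded the average of wild-type. They were named for their small p, which favours such a count, so it is no separate support. Airn, which runs antisense through Igf2r, had a log2 FC of -0.12 (SE 0.40).

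Of 16 genes that maintain or remove methylation imprints, 14 were tested and 0 passed over all genes in edgeR, DESeq2 or limma-voom. In edgeR, 3 had an unadjusted p under 0.05, all above wild-type (5.62% of all genes, and 10.5% in either direction). These were Tet3 (log2 FC 0.17, SE 0.06, adjusted p = 0.247) and Tet1 (0.16, SE 0.07, adjusted p = 0.420), which oxidize methylated cytosine, and Dnmt1 (0.18, SE 0.07, adjusted p = 0.293), which copies methylation at replication. How far the length slope bears on this list was not tested either. Zfp57, which binds the hexamer shown above, stood at 230 ± 5.21 CPM in deletion and 231 ± 11.3 CPM in wild-type libraries (SD, n = 5 each; log2 FC -0.01, SE 0.06), and Zfp445, which also acts in imprint maintenance, had a log2 FC of -0.01 (SE 0.06). Dnmt3l and Dppa3, genes of germ cells and the early embryo, were at 0 in every library.

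Within genotypes, no pair of the 9 genes varied together closely enough to pass adjustment. Centred on group means over 10 libraries, the smallest p was that of Cdkn1c with Plagl1 (Pearson r = 0.706, exact permutation p = 0.00639; Spearman rho = 0.709, exact permutation p = 0.0297) and the next that of Grb10 with Plagl1 (r = 0.772, exact permutation p = 0.00931; rho = 0.830, exact permutation p = 0.00924). Meg3 with Cdkn1c was negative (r = -0.803, exact permutation p = 0.0169; rho = -0.673, exact permutation p = 0.0540). Over the 36 pairs 0 passed (smallest adjusted p = 0.152 for Pearson and 0.324 for Spearman), and 8 had an unadjusted Pearson p under 0.05.

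Wild-type 2 was an end point for most of these relations. In it Grb10, Cdkn1c, Mest and Plagl1 were the lowest of the wild-type libraries, 0.35, 0.54, 0.17 and 0.15 below the group mean on the log2 scale, and Meg3 was the highest, 0.32 above. Without wild-type 2 and deletion 6, the libraries farthest from the median, r was 0.578 for Cdkn1c with Plagl1 and 0.624 for Grb10 with Plagl1, and without wild-type 2 and wild-type 4 it was -0.689 for Meg3 with Cdkn1c. For Cdkn1c with Grb10 it was 0.342, against 0.823 over all 10 libraries (rho = 0.588, exact permutation p = 0.0265 for r and 0.0981 for rho), so this relation rests on the libraries left out. With wild-type 2 alone left out, r was 0.752 for Cdkn1c with Plagl1 and 0.762 for Grb10 with Plagl1, near the values over all libraries. It was -0.535 for Meg3 with Cdkn1c and 0.54 for Cdkn1c with Grb10.

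**Figure D4:**
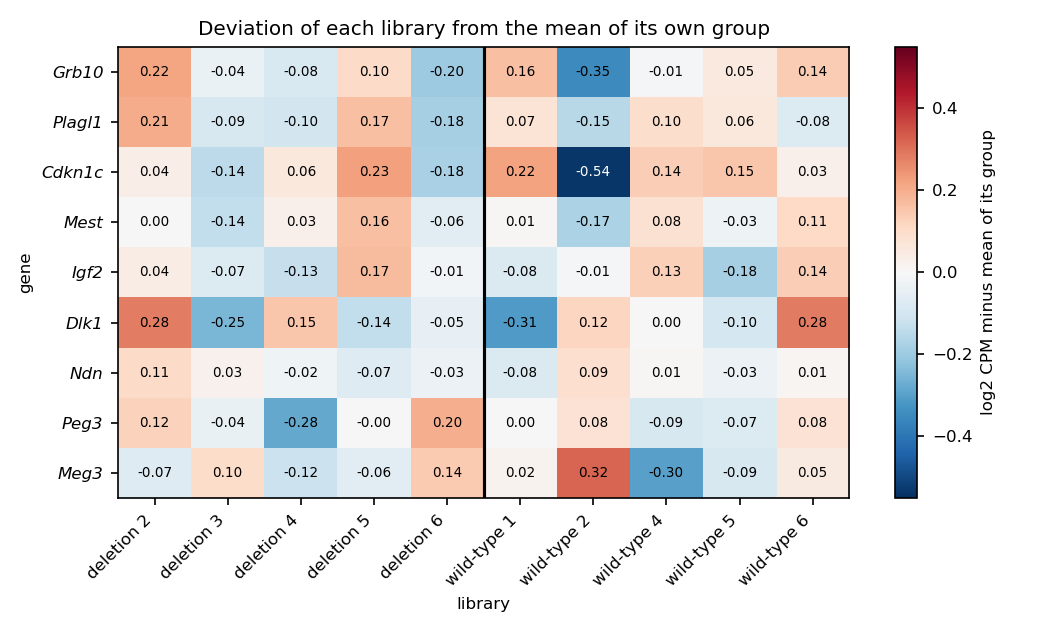
Log2 CPM of 9 imprinted genes (rows) in each library (columns, deletion left of the line and wild-type right) minus the mean of the library's own group. Wild-type 2 is low for Grb10 (-0.35), Cdkn1c (-0.54), Plagl1 (-0.15) and Mest (-0.17) and high for Meg3 (0.32).

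The cell types that the midbrain holds were set beside the genes in the same way, as 9 genes against 11 marker lists and the length slope. Each list was taken as the mean log2 CPM of its tested markers. None of these 108 relations passed after adjustment (13 had an unadjusted Pearson p under 0.05). The closest for Dlk1 were the 10 dopaminergic markers (r = 0.832, exact permutation p = 0.00826, adjusted p = 0.178; rho = 0.794, exact permutation p = 0.0138, adjusted p = 0.236), and r was 0.837 without the 2 libraries farthest out, wild-type 5 and deletion 3. Their summed level was 229 to 284 CPM in deletion and 219 to 280 CPM in wild-type libraries. For Grb10 they were the 12 progenitor markers (r = 0.883, exact permutation p = 0.00701, adjusted p = 0.178; rho = 0.818, exact permutation p = 0.0138, adjusted p = 0.236), and r was 0.560 without wild-type 2 and deletion 6. Peg3 had a like value with the 12 neuronal markers (r = 0.877, exact permutation p = 0.00812, adjusted p = 0.178; rho = 0.818, exact permutation p = 0.0125, adjusted p = 0.236; r = 0.895 without deletion 4 and wild-type 1).

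**Figure D5:**
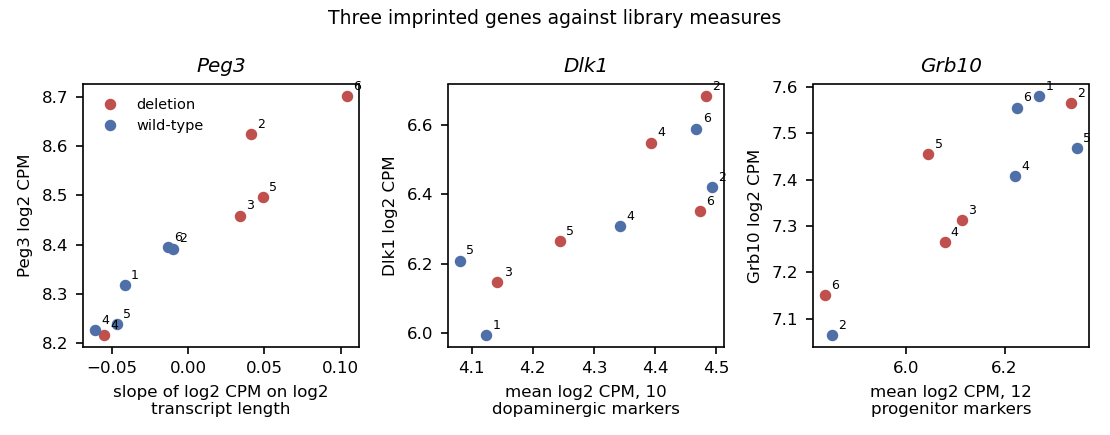
Log2 CPM of Peg3, Dlk1 and Grb10 in each of the 10 libraries against the slope of log2 CPM on transcript length, the mean log2 CPM of 10 dopaminergic markers and that of 12 progenitor markers; red points are deletion and blue points wild-type libraries, with library numbers. Peg3 rises along the slope in both genotypes, with deletion 4 (-0.055) among the wild-type libraries.

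Igf2 is also known from meninges, vessels and mesenchyme, and markers of those tissues were counted beside it. The 14 meningeal markers all had counts and summed to 27.1 to 34.6 CPM in deletion and 28.5 to 34.4 CPM in wild-type libraries, with Lum at a mean of 0.0271 CPM. The 12 endothelial markers summed to 181 to 207 CPM in deletion and 178 to 215 CPM in wild-type libraries. The 8 choroid plexus markers summed to 127 to 217 CPM in deletion and 187 to 230.5 CPM in wild-type libraries. Otx2, which the midbrain also expresses, is on that list, and Ttr, the defining choroid plexus marker, had a mean of 0.0522 CPM. The 12 muscle and cartilage markers summed to 90.1 to 139.9 CPM in deletion and 105 to 134 CPM in wild-type libraries. Col2a1 (mean 66.7 CPM) and Sox9 (mean 47.4 CPM) were the highest of them and made up most of the sum. Ttn came next at a mean of 2.02 CPM, Myod1 had 0.0541 and Acan 0.162 CPM, and Myog and Matn1 were at 0 in every library. Of the 14 meningeal markers 7 were tested, and Igf2 had an r of 0.532 with their mean log2 CPM (exact permutation p = 0.133). The rho was 0.515 (exact permutation p = 0.156), and the relation did not pass. The meningeal covariate was another measure, the mean log2 CPM of all 14 markers. With it the log2 FC of Igf2 was -0.02 (SE 0.08, edgeR adjusted p = 0.988).

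By group-centred log2 CPM over 10 libraries, the 3 genes most like each of the 9 were taken from 13212 genes averaging 1 CPM or more, and none of them was another of the 9. They were the highest of many, so these values describe the libraries and carry no test. For Igf2 they were Arf6 (r = 0.953), Fam122a (0.920) and Syndig1 (0.908), and for Dlk1 Slc1a4 (0.904), Tns1 (0.903) and Fance (0.887). For Grb10 they were Fignl1 (0.937), Insm1 (0.937), a factor of intermediate neural progenitors, and Hes1 (0.934), a Notch target of radial glia. Hes1 is also on the progenitor marker list, so it is no separate observation. For Cdkn1c they were Hmgn2 (0.979), Sec23b (0.977) and Kif18a (0.962), a mitotic kinesin. For Plagl1 those given are Ttc32 (0.952) and Gtse1 (0.947), and for Peg3 they were Slitrk3 (0.970), Kidins220 (0.969) and Spats1 (0.966). For Ndn they were Kcnk4 (0.965), Pcx (0.925) and Neurl1a (0.919), for Mest Tor1aip2 (0.953), Dedd (0.933) and Zfp330 (0.927), and for Meg3 Cox11 (0.970), Pfkp (0.958) and Cnnm1 (0.954).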

How the data were processed

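The authors deposited 1 table of raw gene counts by Entrez ID. HISAT2, featureCounts and the build mm39 are named, per the submitters' processing notes. Their versions and settings, the annotation and whether strand was used is not given in the sources used here. Ambiguous or multi-mapping reads can be lost from genes with overlaps. Columns were matched to samples by title, with 0 left over. Symbols came from RefSeq (GRCm38.p6), for 30648 of 30935 IDs, and transcript lengths from GENCODE M21 (GRCm38), for 14119 of 15288 tested genes (92.4%). Another build than the counts', these gave no positions other than those of the promoter sequences.

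Counts were tested with edgeR 4.0.16 (R 4.3.3): filterByExpr, TMM scaling, a quasi-likelihood fit (robust) on genotype alone, and Benjamini-Hochberg adjustment over all 15288 genes, with a threshold of 0.05. The standard error is the log2 fold change divided by the square root of F. CPM are TMM-scaled, and log2 of CPM took a prior count of 2. Correlations used values centred on group means, with exact permutation within groups (14400). DESeq2 1.42.0 and limma-voom (limma 3.58.1) were alternatives, with other scalings and filters, covariates, length and GC trends (splines with 4 degrees of freedom), the replicate block and each library left out. This test was tried on simulated counts, 200 genes being changed among those averaging 5 CPM or more, and 5.71% of its calls were false. No library repeated another of its group (chi-square per degree of freedom at least 5.81), and all 10 entered the tests.

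The members and lists were chosen with earlier results of these data known. Named were all members, other imprinted genes in their domains with at least 1 CPM, the smallest p-values of each list (6, 3 and 3) and the closest profiles. For genes named by a small p, the number of deletion libraries above the wild-type average follows in part from that choice. P-values weigh differences against the spread between these samples, which are taken as independent, as described. Litters are not given, so embryos that share a litter could not be allowed for. Zfp264 and Nespas matched no ID and were not analysed here. One of the closest profiles is not reported here.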

Additional observations from a re-analysis of the deposited data

How the results depend on the processing

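No call among the 9 genes changed under the 12 other settings run with all 10 libraries, and 2 changed when 1 library was left out. The number called ran from 0 to 1 over those fits: Peg3 passed without deletion 4 and Cdkn1c without wild-type 2, with exact permutation p of 0.00794 and 0.0159. Over all genes, edgeR's 9 calls became 15 with upper-quartile factors, 69 with no filter on low counts, 18 with the length and GC trend removed, 268 in DESeq2, and 0 in limma-voom, with the meningeal covariate or with the length trend removed; with 1 library left out they ran from 0 to 357, with 357 without deletion 4 and 88 without wild-type 2. The cause was not tested. With the replicate block 0 genes were called and the log2 value of Cdkn1c was -0.18; correlations of same-numbered libraries ran from -0.0624 to 0.0461, so the numbers were not taken to pair them. Values near 0 changed sign. Igf2 was -0.00151 with upper-quartile factors, -0.000318 with no filter, -0.0151 with the meningeal covariate, -0.0287 with the length trend removed, -0.0628 with length and GC removed and -0.000572 with the progenitor covariate. Meg3 was -0.0757 and -0.103 with those trends removed and -0.0437 with the progenitor covariate. Dlk1 was -0.0104 with the meningeal covariate, Ndn 0.000491 with the Y-linked covariate and 0.00856 with length and GC removed, and Grb10 0.0235 with the progenitor covariate, which was chosen after seeing the data, as were the relations with library measures. With 1 library left out, Igf2 ran from -0.0455 to 0.0387 (exact permutation p from 0.619 to 0.984), Meg3 from -0.0544 to 0.0957 (from 0.302 to 0.984) and Ndn from -0.0391 to 0.00938 (from 0.405 to 0.992). Dlk1 ran from 0.0134 to 0.167, Grb10 from -0.155 to -0.023, Mest from 0.023 to 0.0993 and Plagl1 from 0.0874 to 0.189, none of them passing; Grb10 was -0.0168 with the replicate block and Dlk1 0.025 with length and GC removed.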
